A study of Mus musculus with 9 samples.

Results

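NF-kB is a family of transcription factors that is held in the cytoplasm by inhibitory IkB proteins and is released when the IkB kinase (IKK) complex marks those inhibitors for destruction. Toll-like receptors (TLRs), which recognise parts of microbes, reach IKK through the adapter Myd88 and the Irak and Traf proteins. Several inhibitors of the pathway are themselves NF-kB target genes, so their mRNA is often read as a trace of recent pathway activity. Inflammasomes are a separate arm in which a sensor such as Nlrp3 recruits caspase 1, and caspase 1 then processes interleukin 1 beta. Hematopoietic stem cells (HSCs) carry several of these receptors and respond to inflammation directly. The set described here holds 40 genes of these routes, found by gene symbol among the 56748 genes of the count table: 5 NF-kB subunits, 7 inhibitors, 3 IKK genes, 10 adapters and ubiquitin ligases, 8 receptors and co-receptors, and 7 inflammasome and cytokine genes. All 40 symbols were found.

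RNA-seq libraries were made from HSCs sorted from the bone marrow of female C57BL/6 mice. The study compared young HSCs (yHSCs) of mice of 6 to 10 weeks with pre-aged HSCs (paHSCs) of mice of 14 to 16 months, the latter divided by surface P-selectin into Selp_low and Selp_high paHSCs. Each of the 3 groups had 3 libraries (n = 3). All were gated as lineage-negative Sca1+ c-Kit+ CD48- CD150+ cells. The labels give no treatment or altered allele for any group, and the number of mice behind each library is not given in the sources used here, so p-values measure the spread between libraries, which may in part be technical.

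*Selp*, which encodes P-selectin, was checked first as the basis of the sort. Its level was 20.5, 30.0 and 23.2 CPM (counts relative to the library total, scaled with TMM factors) in yHSC replicates 1 to 3, 109, 29.3 and 93.3 CPM in Selp_low paHSCs, and 651, 266 and 264 CPM in Selp_high paHSCs, so all Selp_high libraries lay above all others. The libraries held 24866975 to 35375310 counts. The share of the 10 most counted genes was 44.8% in Selp_low replicate 2, 20.9% in Selp_low replicate 3, 12.5% in yHSC replicate 1 and 3.90% to 8.94% elsewhere. Summed over 10 HSC markers, among them *Kit*, *Hlf* and *Mecom*, the level was 1301, 2369 and 2740 CPM in yHSCs, 1689, 1396 and 1000.5 CPM in Selp_low and 3402, 2628 and 2440 CPM in Selp_high paHSCs, and no marker was at 0 in every library. The HSC marker sum was thus lower in every Selp_low than in every Selp_high library. Markers of other cells differed between libraries of the same group and, for some cells, between groups. The sum of 7 B lineage and plasma cell markers was 5398 CPM in Selp_low replicate 1 and 105729 CPM in Selp_low replicate 2. It was 3617 CPM in Selp_high replicate 2, against 76.2 to 640 CPM in the other 6 libraries. *Jchain* alone gave 98320 CPM of it in Selp_low replicate 2 and 3192 CPM in Selp_high replicate 2, but 247 CPM in Selp_low replicate 1. *Cd79a* was 2495 and 4245 CPM in Selp_low replicates 1 and 2 and 178 CPM in Selp_high replicate 2, against 8.73 to 85.0 CPM elsewhere. The sum of 15 neutrophil markers was 217456 CPM in Selp_low replicate 3, 66010 CPM in yHSC replicate 1 and 44276 CPM in Selp_high replicate 3, against 603 to 19854 CPM elsewhere. The sum of 8 T and NK cell markers was 352, 938 and 639 CPM in Selp_low paHSCs. The other 6 libraries held 86.9 to 174 CPM, so this sum lay apart between the paHSC fractions, as *Nfkbia*, *Nfkbib* and *Rel* do below. Its single markers did not all do so. In Selp_low replicate 3, *Nkg7* alone was 619 CPM, while *Cd3e*, *Cd3d*, *Cd3g* and *Lck* were 0.487, 1.87, 0.824 and 6.44 CPM. *Klrb1c* went the other way, with 25.7, 14.8 and 9.48 CPM in Selp_low and 102, 47.9 and 39.2 CPM in Selp_high paHSCs. The sum of 10 megakaryocyte and platelet markers was 131 to 203 CPM in yHSCs, 187, 1670 and 2232 CPM in Selp_low and 1382, 7582 and 4025 CPM in Selp_high paHSCs. The part of any of these cells in the differences between groups was not tested. In bulk RNA, fewer cells of a type and less RNA per cell cannot be told apart, and the same holds for a few other cells with much RNA. These sums are given below beside the genes they moved with.

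The promoters of 5 of the genes described below are shown. Only promoters that hold a match to the NF-kB (kB) consensus, the DNA motif that NF-kB dimers bind, were picked. They therefore do not represent all 40 genes. Each runs from 250 bases before to 50 bases after a transcription start in RefSeq (GRCm38.p6), 5′ to 3′ on the gene's strand, with kB matches on either strand in capitals. Adjacent matches that overlap are shown as 1 run.

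Rel, chr11:23770920-23771219, minus strand: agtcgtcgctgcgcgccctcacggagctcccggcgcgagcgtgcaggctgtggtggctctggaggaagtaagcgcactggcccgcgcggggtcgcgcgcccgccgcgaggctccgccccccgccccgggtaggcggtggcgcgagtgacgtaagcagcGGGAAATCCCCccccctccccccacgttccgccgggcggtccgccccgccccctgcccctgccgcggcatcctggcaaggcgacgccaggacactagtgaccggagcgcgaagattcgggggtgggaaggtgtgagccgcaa
Nfkbia, chr12:55492598-55492897, minus strand: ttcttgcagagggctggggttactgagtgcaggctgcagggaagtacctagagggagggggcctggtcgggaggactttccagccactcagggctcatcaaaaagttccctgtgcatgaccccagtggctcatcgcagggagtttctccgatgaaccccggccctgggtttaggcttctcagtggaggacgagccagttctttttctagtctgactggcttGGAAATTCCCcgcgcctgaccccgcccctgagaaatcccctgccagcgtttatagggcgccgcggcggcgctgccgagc
Nfkbid, chr7:30422156-30422455, plus strand: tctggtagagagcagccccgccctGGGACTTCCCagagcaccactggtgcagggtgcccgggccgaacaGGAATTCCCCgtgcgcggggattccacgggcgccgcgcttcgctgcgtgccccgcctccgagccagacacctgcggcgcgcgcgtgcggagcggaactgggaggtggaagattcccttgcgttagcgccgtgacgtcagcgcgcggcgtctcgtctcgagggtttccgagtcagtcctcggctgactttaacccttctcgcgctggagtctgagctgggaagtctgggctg
Tnfaip3, chr10:19015361-19015660, minus strand: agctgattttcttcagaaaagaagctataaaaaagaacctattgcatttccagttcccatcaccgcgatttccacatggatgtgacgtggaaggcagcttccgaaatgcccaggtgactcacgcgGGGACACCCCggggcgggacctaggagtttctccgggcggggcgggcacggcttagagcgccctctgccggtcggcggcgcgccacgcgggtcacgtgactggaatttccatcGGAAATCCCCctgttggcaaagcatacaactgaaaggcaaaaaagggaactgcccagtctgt
Tlr2, chr3:83841559-83841858, minus strand: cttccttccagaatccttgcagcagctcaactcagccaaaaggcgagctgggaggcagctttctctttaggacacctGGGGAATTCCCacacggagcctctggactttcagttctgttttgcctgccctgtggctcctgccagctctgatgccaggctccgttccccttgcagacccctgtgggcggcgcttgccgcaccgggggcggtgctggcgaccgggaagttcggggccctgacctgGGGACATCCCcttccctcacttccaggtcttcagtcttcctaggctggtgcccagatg

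RefSeq promoters were found for 31 of the 40 genes, and 11 of these 31 (35.5%) had a kB match in at least 1 promoter, against 9.55% of the 27025 genes with a promoter of the same length in that table. The 11 genes were *Rel*, *Nfkb2*, *Nfkbia*, *Nfkbie*, *Nfkbid*, *Tnfaip3*, *Tnip1*, *Irak1*, *Tlr2*, *Nlrp3* and *Il6*. *Nfkbib*, *Irak2*, *Birc3* and *Il1a*, whose fold changes are given below, had no match in their promoters. Over single promoters, 8.46% of all 32851 held a match. *Nfkbid* and *Tnfaip3* have other starts in the table whose promoters held no match. A match is a description of these letters and not of a bound site.

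The levels of the 40 genes spanned a wide range when compared per length (FPKM, CPM per kilobase of the gene length in the authors' table). *Nfkbia*, which encodes IkB alpha, the inhibitor that NF-kB itself induces, had the highest mean FPKM in each group, 309 in yHSCs, 576 in Selp_low paHSCs and 217 in Selp_high paHSCs. *Rela*, the activating subunit p65, had 70.4, 47.0 and 55.2 FPKM in the same order, and *Irak1*, a kinase downstream of Myd88, had 62.3, 38.1 and 61.3 FPKM. At the other end, *Tlr9*, a sensor of unmethylated DNA, had a mean of 0.067, 0.16 and 0.044 FPKM, and *Il6*, *Nlrp3*, *Tlr6* and *Tlr7* stayed at mean levels of 0.289 to 1.75 FPKM. *Rel* ranked 31, 32 and 34 of 40 by mean FPKM in yHSCs, Selp_low and Selp_high paHSCs. *Nfkbid* ranked 2 in yHSCs and Selp_low paHSCs and 10 in Selp_high paHSCs.

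**Figure D1:**
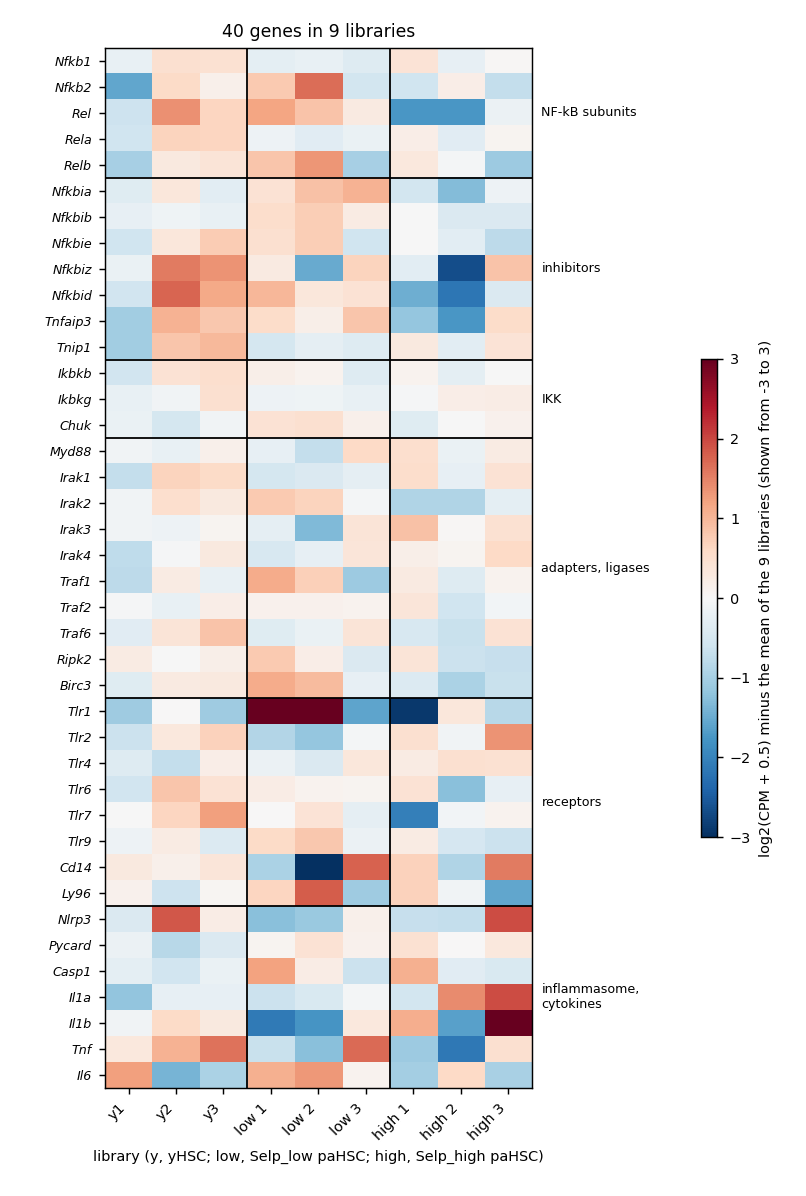
Heat map of the 40 genes (rows, by role) in the 9 libraries (columns, 3 per group); color is log2(CPM + 0.5) minus the gene's mean over the 9 libraries, shown from -3 to 3. Selp_high replicate 2 held the lowest level of 11 genes and yHSC replicate 2 and Selp_low replicate 2 the highest of 8 each, and *Tlr1* stood out in Selp_low replicates 1 and 2.

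Selp_high and Selp_low paHSCs, which come from mice of the same age range, were compared first. *Nfkbid*, *Nfkbia*, *Nfkbib*, *Rel*, *Irak2* and *Birc3* were lower in every Selp_high library than in every Selp_low library, whereas *Tlr2* and *Il1a* had higher means in Selp_high paHSCs. None of the 40 genes passed edgeR's quasi-likelihood test at an adjusted p of 0.05 and an absolute log2 fold change of 1, nor did any of the 20370 genes tested (0%). Even *Selp*, the basis of the sort, was not called by edgeR, at a log2 fold change of 2.34 (SE 0.60, edgeR adjusted p = 0.338, DESeq2 adjusted p = 0.0216). An absent edgeR call in this comparison therefore does not show equal levels. DESeq2 with all genes as input called none of the 40 and 2.21% of all genes. With only the genes past edgeR's filter as input, it called 5 of the 40, all lower in Selp_high paHSCs (*Nfkbid*, *Nfkbia*, *Rel*, *Birc3* and *Irak2*), against 5.19% of all genes. With that input, DESeq2 called none of the 40 without Selp_low replicate 2, *Nfkbia* alone without Selp_low replicate 1 and *Il1a* alone, as higher, without Selp_high replicate 1. Without Selp_high replicate 2 it called *Nfkbia*, *Nfkbid* and *Il6* as lower and *Il1b* and *Tlr2* as higher. Without Selp_high replicate 3 it called *Nfkbia*, *Nfkbid*, *Rel* and *Tnfaip3* as lower. Without Selp_low replicate 3 it called the 5 genes and *Nfkb2* as lower and *Il1b* and *Tlr2* as higher. The calls over all genes shifted as well. They were 645 of 14957, 175 of 15000 and 1364 of 16300 genes without Selp_low replicates 1, 2 and 3. They were 619 of 22061, 2078 of 21368 and 594 of 21918 genes without Selp_high replicates 1, 2 and 3.

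At an unadjusted p under 0.05 by edgeR, there were 8 of the 40 genes, 6 lower and 2 higher in Selp_high paHSCs, against 12.5% of all genes. The 8 became 5 without Selp_low replicate 1 or 2 and 15 without Selp_low replicate 3. The Selp_high libraries lay wholly below the Selp_low libraries for 7 genes (10.7% of all genes did) and wholly above for 2 (10.3%). Over all genes tested, 11250 of 20370 log2 fold changes were below 0. Of those of the 40 genes, 15 were above 0 and 25 below, with a median of -0.30 beside -0.11 over all genes tested. This median rested on Selp_high replicate 2, without which it was 0.011, and it was -0.15 without Selp_low replicate 1.

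The labels do not state whether the libraries of the paHSC fractions are paired. Residuals of same-numbered libraries correlated at 0.188 to 0.307, but differently numbered libraries were not compared. With yHSCs, which come from other mice, such values reached -0.434, so they cannot show a pairing. The replicate number was used as a block as an alternative. With the replicate number as a block, edgeR still called none of the 40. DESeq2 with that block called 9 of the 40 and 9.17% of all genes: *Rel*, *Nfkb2*, *Nfkbia*, *Nfkbid*, *Tnfaip3*, *Irak2* and *Birc3* as lower, and *Tlr2* and *Il1b* as higher, in Selp_high paHSCs.

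Among the subunits, *Rel*, which encodes c-Rel, the subunit best known from lymphocytes, was 44.9, 35.4 and 23.4 CPM in Selp_low replicates 1 to 3 and 5.42, 5.40 and 17.0 CPM in Selp_high replicates 1 to 3. The fractions did not overlap, and Selp_high replicate 3 was the nearest to the Selp_low libraries. The log2 fold change was -1.91 (SE 0.56, edgeR adjusted p = 0.338). In yHSCs *Rel* was 12.4, 51.2 and 30.7 CPM, and thus spread across most of the range of the other groups. *Rela* and *Nfkb1*, which form the classical p65/p50 dimer, varied far less: their means were 169 ± 31.8 and 124 ± 28.6 CPM (SD, n = 3) in Selp_high and 144 ± 9.35 and 95.7 ± 5.71 CPM in Selp_low paHSCs, with overlapping libraries. *Nfkb2* and *Relb*, the subunits of the noncanonical dimer, were highest in Selp_low replicate 2 (130 and 52.4 CPM) and Selp_low replicate 1 (69.6 and 36.9 CPM), the libraries with the largest B lineage and plasma cell sums. In Selp_low replicate 3 they were 27.3 and 10.1 CPM, within the range of the Selp_high libraries (24.3 to 46.1 and 9.42 to 26.0 CPM). The part of those cells in the levels was not tested.

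Of the 7 inhibitors, 6 had a log2 fold change below 0 and 3 lay apart between the fractions. *Nfkbid*, an atypical nuclear IkB protein, was 174, 112 and 119 CPM in Selp_low paHSCs and 31.2, 19.1 and 64.5 CPM in Selp_high paHSCs. No Selp_high library reached the lowest Selp_low library. The log2 fold change was -1.83 (SE 0.47, edgeR adjusted p = 0.338). *Nfkbia* was 714, 976 and 1094 CPM in Selp_low and 359, 213 and 478 CPM in Selp_high paHSCs, a log2 fold change of -1.41 (SE 0.38, edgeR adjusted p = 0.338). Selp_low replicate 3 was the highest of all libraries. It had the lowest B lineage and plasma cell sum (76.2 CPM) and the largest neutrophil sum (217456 CPM). Its sum of 10 monocyte and macrophage markers was 2018 CPM, against 189 to 501 CPM elsewhere. *Ly6c2* alone gave 1987 CPM of that sum, and *Cd68*, *Ms4a6c*, *C1qa*, *C1qb* and *C1qc* were at their lowest in that library. *Nfkbib*, which encodes IkB beta, was 80.3, 93.0 and 66.2 CPM in Selp_low and 55.5, 41.4 and 41.2 CPM in Selp_high paHSCs (log2 fold change -0.80, SE 0.25, edgeR adjusted p = 0.338). The groups again lay apart, though the difference was under the study's fold-change minimum. *Tnfaip3*, which encodes the ubiquitin-editing enzyme A20, was 136, 105 and 166 CPM in Selp_low and 41.5, 27.5 and 136 CPM in Selp_high paHSCs. Selp_high replicate 3 reached the Selp_low libraries, so the groups overlapped. *Nfkbiz*, another nuclear IkB protein, had no consistent order, with 153, 44.2 and 202 CPM against 102, 19.7 and 233 CPM. *Nfkbie* (IkB epsilon) and *Tnip1*, a partner of A20, overlapped between the fractions at 22.0 to 64.7 and 33.7 to 64.7 CPM.

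**Figure D2:**
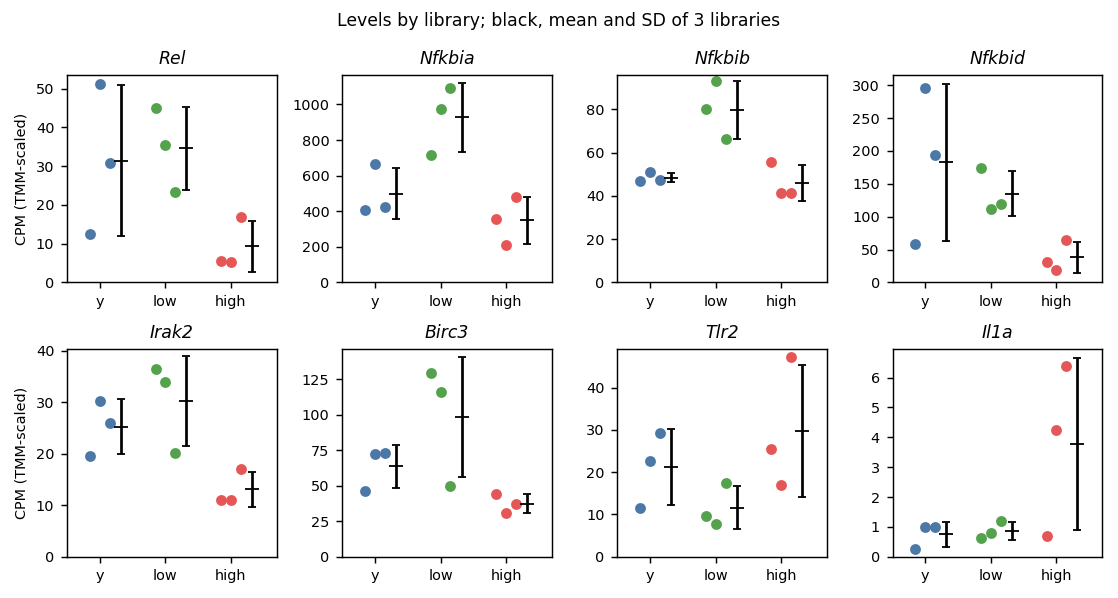
TMM-scaled CPM (y axis, linear, from 0) of the 8 genes with an unadjusted p under 0.05 between the paHSC fractions, in yHSCs (y), Selp_low (low) and Selp_high (high) paHSCs; each point is a library, in replicate order, and the black marks give the mean and SD of 3 libraries. The Selp_high points of *Rel*, *Nfkbia*, *Nfkbib*, *Nfkbid*, *Irak2* and *Birc3* sit below all Selp_low points, and those of *Tlr2* and *Il1a* overlap with them.

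The IKK genes differed little. *Chuk* (IKK alpha) was 85.3, 88.5 and 70.3 CPM in Selp_low and 49.0, 62.4 and 69.0 CPM in Selp_high paHSCs, so the groups lay apart only by the small gap between 69.0 and 70.3 CPM. *Ikbkg* (NEMO, the regulatory subunit) was 44.4, 45.2 and 42.4 CPM against 48.3, 56.9 and 58.0 CPM. Its gene overlaps *G6pdx* on the other strand, and the strand setting of the counting is not given in the sources used here, so its reads could be split between them. *Ikbkb* (IKK beta) overlapped at 98.8 to 147 CPM. Neither *Chuk* nor *Ikbkg* had an unadjusted p under 0.05.

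Of the adapters and ligases, *Irak2*, a kinase of the Myd88 complex that sustains signaling, was 36.4, 33.9 and 20.2 CPM in Selp_low and 11.1, 11.1 and 17.0 CPM in Selp_high paHSCs. The libraries lay apart, with a log2 fold change of -1.22 (SE 0.36, edgeR adjusted p = 0.338). Selp_low replicates 1 and 2, which had the largest B lineage and plasma cell sums, were the highest of all libraries for *Irak2*. The part of those cells in its level was not tested. *Birc3*, which encodes the ubiquitin ligase cIAP2, was 130, 116 and 50.2 CPM in Selp_low and 44.4, 30.8 and 37.3 CPM in Selp_high paHSCs, a log2 fold change of -1.41 (SE 0.39, edgeR adjusted p = 0.338). Its highest levels were in Selp_low replicates 1 and 2, as for *Traf1* (81.8 and 61.6 CPM, against 17.2 to 45.3 CPM in the other 7 libraries), and the part of B lineage cells in this was not tested. *Irak1* went the other way, with 164, 176 and 199 CPM in Selp_low and 346, 199.9 and 320 CPM in Selp_high paHSCs. The groups lay apart by a narrow gap, between Selp_low replicate 3 and Selp_high replicate 2. *Myd88*, *Irak3* (an inactive kinase that restrains TLR signaling), *Irak4*, *Traf2*, *Traf6* and *Ripk2*, the kinase of the Nod receptors, overlapped between the fractions.

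Among the receptors, *Tlr2*, which senses bacterial lipoproteins, was 9.64, 7.84 and 17.3 CPM in Selp_low and 25.4, 16.9 and 47.1 CPM in Selp_high paHSCs. Selp_high replicate 2 lay just below Selp_low replicate 3, and the log2 fold change was 1.35 (SE 0.49, edgeR adjusted p = 0.358). *Tlr1*, a partner of Tlr2, was 36.7 and 48.8 CPM in Selp_low replicates 1 and 2 and 0.749 CPM in Selp_low replicate 3. It was 1.29, 3.22 and 1.28 CPM in yHSCs and 0, 4.24 and 1.60 CPM in Selp_high paHSCs, where the count of 0 in replicate 1 allows up to 0.0774 CPM (3 counts, counting error only). The 3 libraries with the highest *Tlr1* were also those with the largest B lineage and plasma cell sums. *Ly96* (MD-2, the co-receptor of Tlr4) was highest in Selp_low replicate 2, at 38.8 CPM, and 3.32 to 17.6 CPM in the others. *Tlr4*, the receptor of lipopolysaccharide, was 14, 11.7 and 20.4 CPM in Selp_low and 19.0, 22.4 and 22.2 CPM in Selp_high paHSCs, with overlap. *Cd14*, which hands lipopolysaccharide to Tlr4, was 23.6 CPM in Selp_low replicate 3 and 20.4 CPM in Selp_high replicate 3, against 0.395 to 10.8 CPM in the other libraries. Those were 2 of the 3 libraries with the largest neutrophil sums. *Tlr6*, *Tlr7* and *Tlr9* were 7.46, 10.4 and 0.857 CPM at most in any library. The part of other cells in the receptor levels was not tested.

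**Figure D3:**
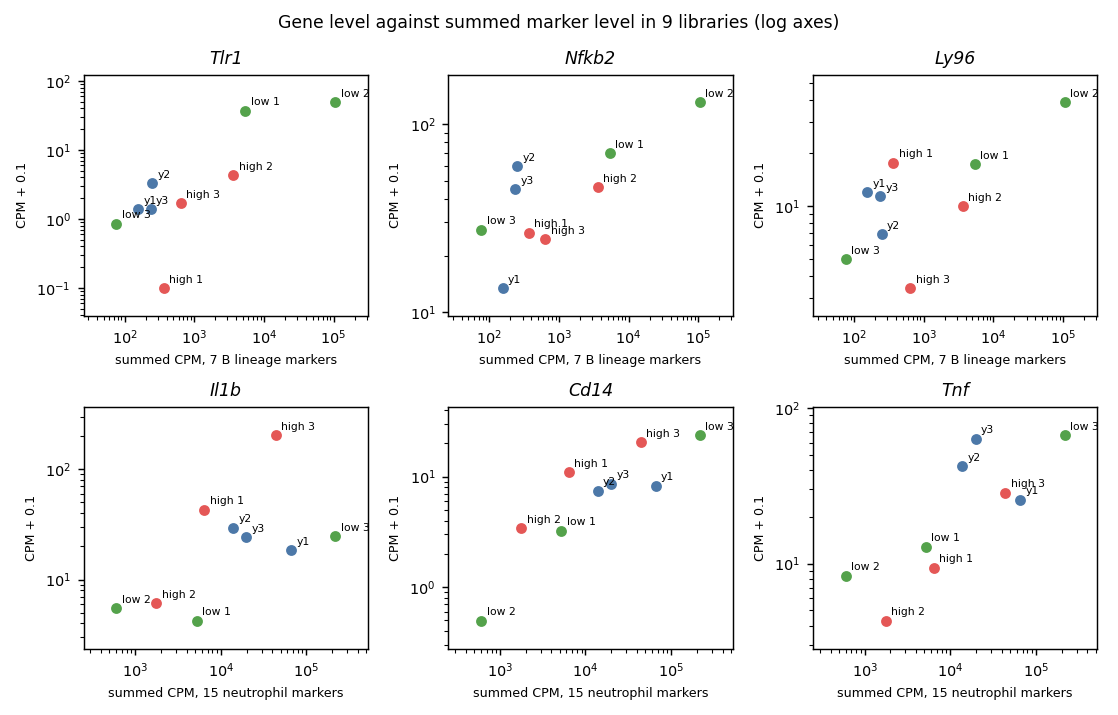
Level of *Tlr1*, *Nfkb2* and *Ly96* against the summed level of 7 B lineage and plasma cell markers, and of *Il1b*, *Cd14* and *Tnf* against that of 15 neutrophil markers; each point is 1 of the 9 libraries, in CPM on log axes with 0.1 CPM added to the gene level. *Tlr1* and *Nfkb2* are highest in Selp_low replicates 2 and 1, at the right of their panels, and *Cd14* is highest in Selp_low replicate 3 and Selp_high replicate 3.

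Of the inflammasome and cytokine genes, *Il1a* (interleukin 1 alpha) was 0.623, 0.791 and 1.20 CPM in Selp_low and 0.697, 4.24 and 6.38 CPM in Selp_high paHSCs. It was higher in Selp_high replicates 2 and 3 than in any other library, but not in replicate 1, and the log2 fold change was 2.11 (SE 0.86, edgeR adjusted p = 0.387). *Il1b* was 4.13, 5.41 and 24.7 CPM in Selp_low and 42.8, 6.02 and 204 CPM in Selp_high paHSCs. The Selp_high mean of 84.2 ± 105 CPM (SD, n = 3) thus rested on replicate 3, which had the third largest neutrophil sum. In yHSCs *Il1b* was 18.3, 29.4 and 24.2 CPM. Selp_low replicate 3 and yHSC replicate 1 had larger neutrophil sums (217456 and 66010 CPM) but 24.7 and 18.3 CPM of *Il1b*. Selp_high replicate 1, with 42.8 CPM, had a sum of 6415 CPM. *Nlrp3* was 11.5 CPM in Selp_high replicate 3 and 10.7 CPM in yHSC replicate 2, against 0.787 to 3.12 CPM in the other 7 libraries. *Pycard*, the inflammasome adapter ASC, was similar in both fractions at 37.0, 46.9 and 37.7 CPM and 47.9, 34.9 and 43.5 CPM. *Casp1* was 142, 72.2 and 39.3 CPM in Selp_low and 128, 48.7 and 44.7 CPM in Selp_high paHSCs, and replicate 1 was the highest in both. *Tnf* was 12.7, 8.24 and 66.9 CPM in Selp_low and 9.29, 4.19 and 28.5 CPM in Selp_high paHSCs, replicate 3, which had the largest neutrophil sum of its group (217456 and 44276 CPM), being the highest in both. *Il6* was 3.03 CPM at most.

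Selp_high paHSCs were next compared with yHSCs. *Nfkbid*, *Irak2*, *Birc3*, *Rel* and *Tnf* had lower means in Selp_high paHSCs, and *Pycard* and *Il1a* had higher means. *Tlr9* and *Il6* did not pass the filter on low counts, which left 38 of the 40. edgeR called none of these 38 and 0.165% of all 20017 genes tested, and DESeq2 called *Nfkbid* alone, as lower, against 2.99% of all genes with all genes as input and 3.81% with the genes past edgeR's filter. At an unadjusted p under 0.05 there were 7 (5 lower and 2 higher), against 7.59% of all genes. Leaving out yHSC replicate 2 turned the 7 into 1, yHSC replicate 3 into 3 and Selp_high replicate 2 into 4. The Selp_high libraries lay wholly below the yHSC libraries for 2 genes, *Irak2* and *Birc3* (5.28% of all genes), and wholly above for 2, *Pycard* and *Tlr4* (8.53%). The median log2 fold change was -0.20 beside -0.033 over all genes, and leaving out yHSC replicate 2, yHSC replicate 1 or Selp_high replicate 1 moved it to -0.066, -0.39 or -0.33.

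*Nfkbid* was 58.4, 296 and 194 CPM in yHSCs, against 64.5 CPM at most in Selp_high paHSCs, so only yHSC replicate 1 reached the Selp_high range. The log2 fold change was -2.29 (SE 0.66, edgeR adjusted p = 0.362, DESeq2 adjusted p = 0.0135). Without yHSC replicate 2, without yHSC replicate 3 or without Selp_high replicate 2, DESeq2 no longer called it, nor without Selp_high replicate 1 when all genes were the input. *Irak2* was 19.5, 30.2 and 26.0 CPM in yHSCs, each above the 17.0 CPM of the highest Selp_high library, with a log2 fold change of -0.99 (SE 0.32, edgeR adjusted p = 0.457). *Birc3* was 46.5, 72.2 and 72.9 CPM in yHSCs, and its log2 fold change was -0.79 (SE 0.28, edgeR adjusted p = 0.513). *Rel*, which varied widely in yHSCs, had a log2 fold change of -1.81 (SE 0.66, edgeR adjusted p = 0.545). *Tnf* was 25.6, 42.4 and 63.5 CPM in yHSCs, and Selp_high replicate 3 lay within that range (log2 fold change -1.68, SE 0.68, edgeR adjusted p = 0.630).

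*Pycard* was 30.6, 19.2 and 25.6 CPM in yHSCs, below all Selp_high and all Selp_low libraries. Its log2 fold change was 0.71 (SE 0.29, edgeR adjusted p = 0.638) for Selp_high paHSCs over yHSCs. *Il1a*, at 0.271, 0.996 and 0.984 CPM in yHSCs, had a log2 fold change of 2.30 (SE 0.95, edgeR adjusted p = 0.643), and Selp_high replicate 1 overlapped with the yHSCs. *Tlr4* was 12.0, 9.47 and 18.6 CPM in yHSCs, and the lowest Selp_high library, at 19.1 CPM, was just above them. All 5 subunits and all 7 inhibitors had a log2 fold change below 0 in this comparison, with medians of -0.30 and -0.63. So did 10450 of all 20017 genes tested, with a median of -0.033 over all genes. Of the 12 subunits and inhibitors, DESeq2 called *Nfkbid* and edgeR none. In yHSC replicate 1, *Rel*, *Nfkb2*, *Nfkbid*, *Tnfaip3* and *Nfkbiz* each had a level within or below the Selp_high range.

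**Figure D4:**
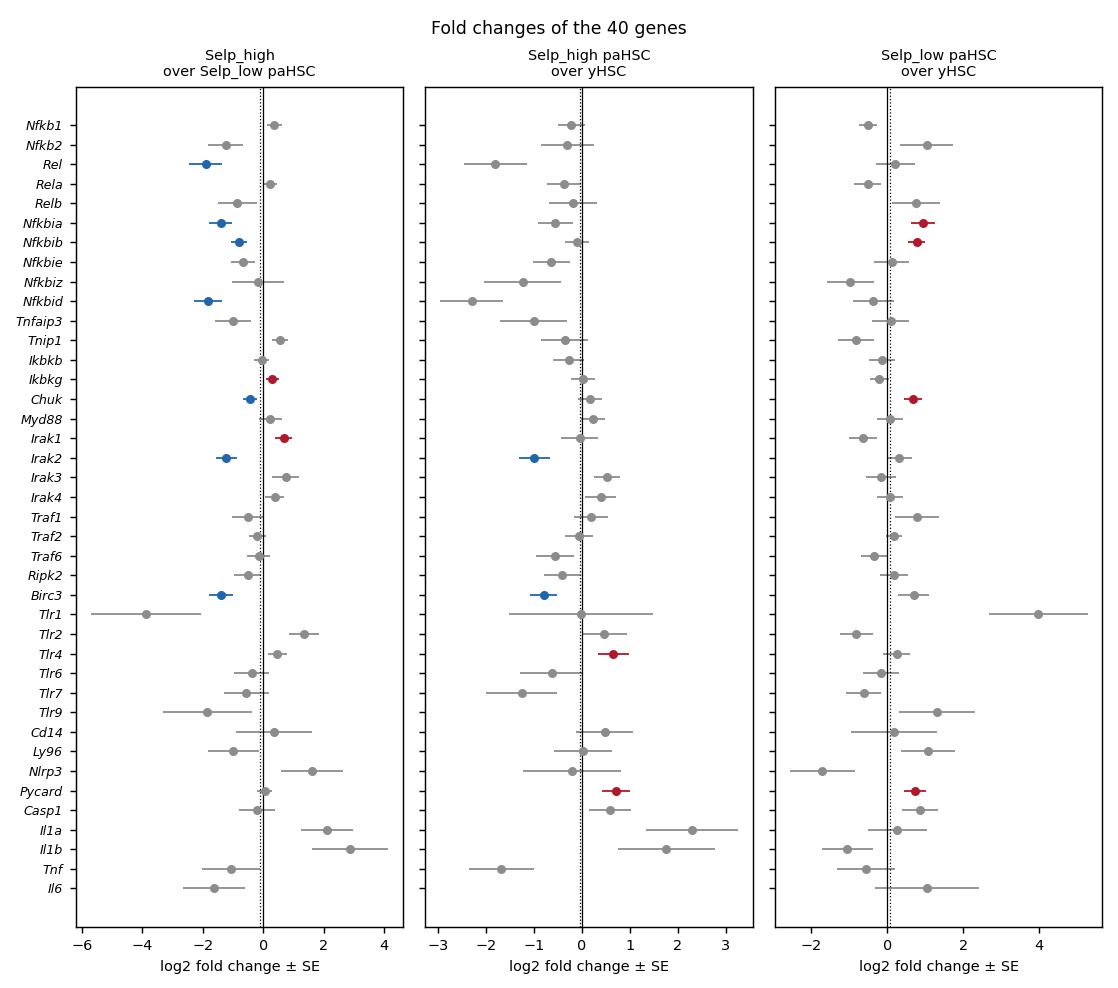
Log2 fold changes with their SE (x axis, edgeR) of the genes (y axis) in the 3 comparisons; red and blue points are genes whose libraries lay wholly above or below those of the second group, gray points overlap, and the dotted line is the median of all genes tested. *Rel*, *Nfkbia*, *Nfkbib*, *Nfkbid*, *Chuk*, *Irak2* and *Birc3* are blue on the left, and *Nfkbia*, *Nfkbib*, *Chuk* and *Pycard* are red on the right.

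The comparison of Selp_low paHSCs with yHSCs shares its yHSC libraries with the one above and its Selp_low libraries with the first, so its values are not independent of either. *Nfkbib*, *Nfkbia*, *Chuk* and *Pycard* were higher in every Selp_low than in every yHSC library, and *Tlr1* had a higher mean. All 40 genes were tested. edgeR called none of them and none of the 20437 genes tested (0%), and DESeq2 called *Tlr1* as higher, against 2.89% of all genes with all genes as input and 5.95% with the genes past edgeR's filter. At an unadjusted p under 0.05 there were 5, all higher in Selp_low paHSCs, against 11.3% of all genes. The 5 became 1 without Selp_low replicate 2, 2 without yHSC replicate 3, 3 without Selp_low replicate 1 or yHSC replicate 2, 11 without yHSC replicate 1 and 12 without Selp_low replicate 3. The Selp_low libraries lay wholly above the yHSC libraries for 4 genes (9.59% of all genes) and wholly below for 0 (6.76%). The median log2 fold change was 0.14 beside 0.083 over all genes, and it was -0.19 without yHSC replicate 1, -0.078 without Selp_low replicate 3 and 0.24 without yHSC replicate 3.

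*Nfkbib* was 46.9, 50.8 and 47.4 CPM in yHSCs, a narrow range below the 66.2 CPM of the lowest Selp_low library (log2 fold change 0.77, SE 0.23, edgeR adjusted p = 0.337). *Nfkbib* overlaps *Sirt2* on the other strand, so its reads could be split between both genes. *Nfkbia* was 408, 663 and 423 CPM in yHSCs (log2 fold change 0.94, SE 0.32, edgeR adjusted p = 0.356). *Chuk* was 55.0, 43.4 and 58.4 CPM in yHSCs (log2 fold change 0.69, SE 0.24, edgeR adjusted p = 0.364), and *Pycard* had a log2 fold change of 0.73 (SE 0.28, edgeR adjusted p = 0.403). For *Tlr1* the log2 fold change was 3.97 (SE 1.30, edgeR adjusted p = 0.352, DESeq2 adjusted p = 0.0172). The 2 Selp_low libraries behind it were the 2 with the largest B lineage and plasma cell sums, and without either of them, or without yHSC replicate 3, DESeq2 no longer called it. Without Selp_low replicate 3, whose *Tlr1* level was below that of every yHSC library, edgeR called it too.

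Neighbouring genes of the same routes were taken from a list of 56 other genes of the TLR, interleukin 1, TNF and inflammasome pathways. Between the paHSC fractions 54 of them were tested and edgeR called none. At an unadjusted p under 0.05 there were 11, against 12.5% of all genes, and the median log2 fold change was 0.068, beside -0.11 over all genes. *Malt1* and *Bcl10*, partners in the complex that links antigen receptors to IKK, were both lower in every Selp_high library than in every Selp_low library. *Malt1* was 57.5, 64.1 and 27.5 CPM in Selp_low and 8.78, 17.8 and 12.7 CPM in Selp_high paHSCs (log2 fold change -1.93, SE 0.44, edgeR adjusted p = 0.338, DESeq2 adjusted p = 0.0214). It was highest in Selp_low replicates 1 and 2, whose B lineage and plasma cell sums were 5398 and 105729 CPM, against 76.2 CPM in replicate 3. *Bcl10* was 97.9, 91.9 and 106 CPM against 57.8, 63.8 and 53.7 CPM (log2 fold change -0.76, SE 0.21, edgeR adjusted p = 0.338). *Unc93b1*, which escorts the endosomal TLRs, was 379, 530 and 199 CPM against 186, 135 and 149 CPM, again with its highest levels in Selp_low replicates 1 and 2 (log2 fold change -1.25, SE 0.40, edgeR adjusted p = 0.338). DESeq2 called 2 genes of the list with all genes as input and 3 with the genes past edgeR's filter, against the shares of all genes given above.

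Against yHSCs, edgeR called none of the 56 in either paHSC fraction, with 5 at an unadjusted p under 0.05 in each. The share of all genes at that p was 7.59% for Selp_high and 11.3% for Selp_low paHSCs. *Il1r1*, the signaling receptor of interleukin 1, was 20.2, 23.6 and 42.3 CPM in yHSCs, 6.33, 2.50 and 5.69 CPM in Selp_low and 4.49, 7.03 and 4.24 CPM in Selp_high paHSCs. Both paHSC fractions lay wholly below the yHSCs. The log2 fold change was -2.45 (SE 0.40, edgeR adjusted p = 0.0993, DESeq2 adjusted p = 8.33e-07) for Selp_high and -2.51 (SE 0.46, edgeR adjusted p = 0.332, DESeq2 adjusted p = 0.00071) for Selp_low paHSCs. *Il18bp*, a secreted trap of interleukin 18, was 13.9, 21.0 and 19.8 CPM in yHSCs and 84.3, 29.8 and 42.2 CPM in Selp_high paHSCs (log2 fold change 1.49, SE 0.43, edgeR adjusted p = 0.377). *Malt1*, with 18.3, 45.1 and 36.3 CPM in yHSCs, had a log2 fold change of -1.37 (SE 0.43, edgeR adjusted p = 0.433) in Selp_high paHSCs. In Selp_low paHSCs, *Map3k8* (Tpl2, a kinase held by p105) was 75.8, 50.1 and 69.0 CPM against 36.3, 44.7 and 39.5 CPM in yHSCs (log2 fold change 0.74, SE 0.24, edgeR adjusted p = 0.344). *Cd40*, a receptor of B cells and other antigen-presenting cells, was 105 and 91.9 CPM in Selp_low replicates 1 and 2 and 0.824 CPM in replicate 3, against 2.21 to 4.10 CPM in yHSCs (log2 fold change 4.49, SE 1.43, edgeR adjusted p = 0.344). It followed the same libraries as *Tlr1*.

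The last list held 27 known NF-kB target genes that are not pathway components. Like the others, it was chosen with earlier results of these data known. In Selp_high paHSCs over yHSCs, 23 were tested and edgeR called 2, against 0.165% of all genes. Both were lower: *Ccl3* and *Ccl4*, neighbouring inflammatory chemokines. *Ccl3* was 63.2, 66.4 and 90.6 CPM in yHSCs and 5.19, 7.42 and 5.35 CPM in Selp_high paHSCs, a log2 fold change of -3.63 (SE 0.30, edgeR adjusted p = 0.0159). *Ccl4* was 290, 298 and 518 CPM against 35.3, 26.4 and 18.7 CPM, a log2 fold change of -3.79 (SE 0.37, edgeR adjusted p = 0.0199). *Bcl2l1*, which encodes the survival protein Bcl-xL, went the other way with 31.3, 28.6 and 42.2 CPM against 64.2, 118 and 70.7 CPM (log2 fold change 1.29, SE 0.32, edgeR adjusted p = 0.259, DESeq2 adjusted p = 0.0241). DESeq2 called all 3. The highest *Bcl2l1* level, in Selp_high replicate 2, was in the library with the largest megakaryocyte and platelet sum (7582 CPM). Another 2 targets had an unadjusted p under 0.05, which made 5, against 7.59% of all genes. The median of the targets was -0.87, beside -0.033 over all genes. The calls of *Ccl3* and *Ccl4* were lost, at edgeR adjusted p values of 0.0697 to 0.132, without Selp_high replicate 2 or 3 or yHSC replicate 2 or 3, with log2 fold changes of -3.90 to -3.50.

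In Selp_low paHSCs over yHSCs, edgeR called none of the 25 targets tested. At an unadjusted p under 0.05 there were 6, against 11.3% of all genes, and the median log2 fold change was 0.23, beside 0.083 over all genes. *Ccl3* was 18.3, 6.06 and 2.55 CPM in Selp_low paHSCs (log2 fold change -2.96, SE 0.71, edgeR adjusted p = 0.332) and *Ccl4* 125, 29.4 and 26.5 CPM (log2 fold change -2.55, SE 0.68, edgeR adjusted p = 0.332). Both were below every yHSC library, and DESeq2 called both. *Sod2*, the mitochondrial superoxide dismutase, was 160, 165 and 230 CPM against 118, 89.9 and 116 CPM in yHSCs (log2 fold change 0.82, SE 0.25, edgeR adjusted p = 0.339). Between the paHSC fractions, edgeR called none of the 25 tested, and 7 had an unadjusted p under 0.05, against 12.5% of all genes. Of the 25 log2 fold changes, 20 were below 0, against 11250 of all 20370 genes tested. The median of the targets was -1.18, beside -0.11 over all genes. Its range without single libraries is not given here. Among the targets below 0, *Ltb* was 526, 798 and 25.8 CPM in Selp_low replicates 1 to 3. *Bcl2a1b* was 4.03, 4.81 and 0.187 CPM there, and *Lta* had the same order. *Plau*, *Nos2*, *Il12b*, *Cxcl1* and *Ccl2* had means of at most 1.30 CPM in both fractions. *Gadd45b*, lower in every Selp_high library, was instead highest in Selp_low replicate 3 (179 CPM). *Cd83*, a surface protein of activated B and dendritic cells, was 620 and 335 CPM in Selp_low replicates 1 and 2, 9.89 CPM in replicate 3 and 9.85 to 31.3 CPM in Selp_high paHSCs (log2 fold change -4.10, SE 1.29, edgeR adjusted p = 0.338). *Bcl2a1d* was 12.9, 18.5 and 0.300 CPM in Selp_low and 0.697, 0.690 and 0.0572 CPM in Selp_high paHSCs (log2 fold change -4.45, SE 1.48, edgeR adjusted p = 0.338), and it is uncertain because its reads can be shared with near-identical copies. Both were high in the same libraries as the B lineage sum, and the part of those cells was not tested. *Bcl2l1*, at 30.2, 30.5 and 56.2 CPM in Selp_low paHSCs, had a log2 fold change of 1.11 (SE 0.37, edgeR adjusted p = 0.338).

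Of the 40 genes, 17 overlap another annotated gene in the authors' coordinates. Partners on the other strand had mean counts over the 9 libraries of 8048 (*G6pdx*) beside 1687 for *Ikbkg*, 2683 (*Sirt2*) beside 1801 for *Nfkbib*, 5377 (*Tmbim4*) beside 2867 for *Irak3* and 2856 (*Acaa1a*) beside 3462 for *Myd88*. They were 49.2 (*Gm14023*) beside 63.6 for *Il1a*, 853 (*Twf1*) beside 1057 for *Irak4* and 499 (*4833438C02Rik*) beside 1463 for *Nfkb2*. For *Irak2*, whose partners held at most 7.22 counts on average, sharing could move few reads. In the authors' coordinates (mm39, as the submitters' notes name the build), *Nfkbid* (ENSMUSG00000036931) spans chr7:30121157-30128171 on the plus strand, *Nfkbia* (ENSMUSG00000021025) chr12:55536195-55539432, *Rel* (ENSMUSG00000020275) chr11:23686847-23720970 and *Birc3* (ENSMUSG00000032000) chr9:7848700-7873187 on the minus strand, and *Irak2* (ENSMUSG00000060477) chr6:113615428-113671987 on the plus strand.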

How the data were processed

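RNA-seq of 9 libraries of sorted mouse HSCs was used. The authors trimmed reads with fastp, aligned them with HISAT2 2.2.1 and counted them per gene with featureCounts 2.0.6. They deposited these counts, without normalization, for 56748 genes. The submitters' processing notes name mm39 as the build. How strand and multi-mapped reads were handled is not given in the sources used here.

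Libraries summed to 24866975 to 35375310 counts. Where a library had 0 counts, up to 3 were allowed for, or 0.0695 to 0.198 CPM, for counting error only. Levels are CPM with TMM factors over all 9 libraries, and FPKM divides these by the gene length. Each pair of groups was fitted alone in R 4.3.3 with edgeR 4.0.16 (filterByExpr, TMM, quasi-likelihood test with the legacy setting, Benjamini-Hochberg adjustment over all genes tested); calls needed an adjusted p of at most 0.05 and a log2 fold change of 1 or more in either direction, as in the study. The study used DESeq2, which was run here as an alternative (1.42.0), with limma 3.58.1 as another. With 3 libraries against 3, an exact permutation test cannot go below p = 0.1. The steps were tested on simulated data.

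The members and lists were chosen with earlier results of these data known. Fold changes are given for members with an unadjusted p under 0.05 (at most 10 per comparison) or called by DESeq2, and for at most 3 genes of each other list. Residuals of same-numbered libraries correlated at 0.188, 0.307 and 0.300 between the paHSC fractions, all above the 0.1 that had been taken as pairing. Differently numbered libraries were not compared and the labels state no pairing, so whether the fractions are paired is not known. With yHSCs, which come from other mice, the correlations were between -0.434 and 0.0724. Figures were drawn with matplotlib 3.10.9 in Python 3.11.15.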

Additional observations from a re-analysis of the deposited data

How the results depend on the processing

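Alternatives were run for 3 comparisons over the members, the other pathway genes and the NF-kB targets. No log2 fold change of a named gene changed sign. Scaling with RLE or upper-quartile factors in place of TMM changed no count of calls within these lists (over all genes, 33 calls in Selp_high paHSCs over yHSCs became 36 and 32), and moved the median of all genes by less than 0.1 (for Selp_high over Selp_low paHSCs it was -0.11 with TMM and -0.16 with upper-quartile factors).

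For Selp_high over Selp_low paHSCs, edgeR without a filter on low counts called 1 target. DESeq2 called 2 other pathway genes and 2 targets with all genes as input, and 5 members, 3 other pathway genes and 2 targets with the genes past edgeR's filter. With DESeq2, leaving out 1 library gave 0 to 7 members called (all genes as input) or 0 to 8 (genes past the filter). Over all genes, the same fits called 95 to 2406 or 175 to 2078 genes. The median of the members was -0.42 to 0.011 over the fits that left out 1 library with edgeR, the highest without Selp_high replicate 2.

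For Selp_high paHSCs over yHSCs, edgeR without a filter called 1 member and 1 other pathway gene, DESeq2 called 1 member, 1 other pathway gene and 3 targets with all genes as input, and 1 member, 2 other pathway genes and 4 targets with the genes past the filter. Limma with voom quality weights called 1 other pathway gene. The 2 targets became 0 in 1 fit of all 9 libraries, and 0 to 2 with 1 library left out. DESeq2 called 0 to 5 members with 1 library left out, under either input, and the member median with edgeR was -0.39 to -0.066. Over all genes, these DESeq2 fits called 357 to 839 genes (all genes as input) or 337 to 860 (genes past the filter).

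For Selp_low paHSCs over yHSCs, no filter gave 1 member, 2 other pathway genes and 2 targets, and DESeq2 gave 1, 2 and 4 under either input. Limma with voom quality weights gave 1 other pathway gene and 1 target, and a member median of -0.19. With 1 library left out, edgeR called 0 to 1 members and 0 to 1 other pathway genes. The member median was then -0.19 to 0.24, and DESeq2 called 0 to 4 members (all genes as input) or 0 to 6 (genes past the filter). Over all genes, edgeR called 0 to 118 genes in these fits, and DESeq2 137 to 2524 or 164 to 3005. The cause of these shifts was not tested. Where a library was left out, the remaining 2 of its group were taken to vary like the other group.

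With a replicate block, edgeR called 0 members in each comparison, with member medians of -0.37, -0.22 and 0.10, and the 2 targets called in Selp_high paHSCs over yHSCs became 0. DESeq2 with the replicate block, chosen after seeing the data like the other DESeq2 inputs and its fits without 1 library, called 9 members, 9 other pathway genes and 4 targets for Selp_high over Selp_low paHSCs; 3, 2 and 4 for Selp_high paHSCs over yHSCs; and 1, 2 and 4 for Selp_low paHSCs over yHSCs. The numbers do not pair libraries with yHSCs.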
